A study of Mus musculus with 10 samples.

Results

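Bmper, Kcp, Chrd, Twsg1, Nog, Grem1, Sostdc1 and Bambi are inhibitors and modulators of bone morphogenetic protein (BMP) signalling that act outside the cell or as a decoy in the cell membrane. The 8 genes were chosen by name, and each has 1 RefSeq transcript among the 24016 transcripts measured in mouse liver. Reads were found for 6 of them in at least 1 of 10 mice, and 4 passed the filter on low values, which asked for a group mean above 0.5 RPKM in either group.

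BMPs are secreted ligands that bind pairs of type I and type II serine/threonine kinase receptors, which phosphorylate SMAD proteins and so switch on target genes such as the Id genes and the inhibitory Smads. Secreted antagonists bind the ligand and keep it from its receptors, whereas Bambi is a receptor-like membrane protein without a kinase domain that takes a place in the receptor complex without passing on the signal. In the liver, BMPs from endothelial cells act on hepatocytes to set the level of hepcidin, the hormone of iron balance, and BMP signalling is also part of blood vessel growth.

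Liver RNA was sequenced from 10 male C57BL/6 mice of 8 to 12 weeks, of which 5 had received AdVEGF and 5 AdCMV into the tail vein. AdVEGF is an adenovirus in which the ubiquitous CMV promoter drives VEGF-A165, a growth factor for blood vessels. AdCMV carries the promoter and no transgene, so that both groups received a virus, and no mouse without virus is part of the series. Livers were perfused with PBS and taken on day 6, and total RNA was depleted of ribosomal RNA. A liver RNA sample mixes hepatocytes with all other cells of the organ, and fewer cells of a type and less RNA per cell cannot be told apart in it. The labels name the 5 mice of a group as biological replicates. Values are RPKM, the reads on a transcript scaled to its length and to the mapped tags of the library, so that levels can be compared between genes. From the steps of the values, the libraries held 5758968 to 13494061 tags in the AdCMV group and 5596580 to 8133954 in the AdVEGF group. Vegfa, looked at as a check of the gene transfer, was at 13.8 to 23.2 RPKM in the AdCMV group and at 28.3 to 39.4 RPKM in the AdVEGF group. Its log2 fold change was 0.82 (limma adjusted p 0.00487), under the size of 1 needed for a call. The species of the transgene is not stated in the sources used here, so that its reads may or may not be part of this value. The Mup genes, abundant and near-identical genes of hepatocytes, took 36.6% ± 12.2 (SD, n = 5) of the reads in AdCMV mice and 16.3% ± 7.92 (SD, n = 5) in AdVEGF mice. The median log2 fold change of all 13933 tested transcripts was 0.38 in the deposited RPKM and -0.01 after median-ratio scaling, which divides each library by its median ratio to the mean library.

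The windows around the transcription start, 250 bases before to 50 after it, are shown for a member that was higher in AdVEGF mice (Bmper), for the most abundant member (Twsg1) and for a member without a read (Grem1). They come from RefSeq, build GRCm38.p6, and capitals mark the motif described after them.
Bmper, chr9:23222826-23223125, plus strand: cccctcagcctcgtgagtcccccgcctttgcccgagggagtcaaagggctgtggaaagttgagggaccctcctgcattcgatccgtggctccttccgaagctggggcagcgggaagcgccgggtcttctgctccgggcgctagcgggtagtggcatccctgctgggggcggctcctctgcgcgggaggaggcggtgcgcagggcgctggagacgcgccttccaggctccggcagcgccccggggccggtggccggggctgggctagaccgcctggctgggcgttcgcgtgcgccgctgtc
Twsg1, chr17:65951138-65951437, minus strand: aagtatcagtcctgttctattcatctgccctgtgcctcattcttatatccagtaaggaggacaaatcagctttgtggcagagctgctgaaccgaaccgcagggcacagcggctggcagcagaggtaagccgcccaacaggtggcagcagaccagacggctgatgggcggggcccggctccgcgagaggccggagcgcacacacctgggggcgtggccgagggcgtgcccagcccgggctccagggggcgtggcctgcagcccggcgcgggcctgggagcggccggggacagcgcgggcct
Grem1, chr2:113758599-113758898, minus strand: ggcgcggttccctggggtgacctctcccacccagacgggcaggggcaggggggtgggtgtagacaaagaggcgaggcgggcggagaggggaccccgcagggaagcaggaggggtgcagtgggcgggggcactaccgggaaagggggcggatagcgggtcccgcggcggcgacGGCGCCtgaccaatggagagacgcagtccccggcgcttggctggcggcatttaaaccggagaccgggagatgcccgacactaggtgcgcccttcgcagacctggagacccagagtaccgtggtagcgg
All 3 windows were rich in G and C, with 72.7% for Bmper, 68.0% for Twsg1 and 70.7% for Grem1, where the median of 32851 such windows was 52.7%. CpG dinucleotides stood at 0.789, 0.670 and 0.792 of the number that the base composition gives, against a median of 0.384 over all windows. Of the 8 members, 5 had a window, Kcp and Chrd being the other two, whose gene spans differ between the table and RefSeq, so that their windows may belong to another start. The letters GGCGCC, the GC-rich element of SMAD proteins, began at position -78 from the start in Grem1 and at position -203 in Chrd, and 11.9% of all windows hold them on at least 1 strand. Another 6 motifs were searched on both strands, and none was found in the windows of these 5 members. They were the SMAD box GTCTAGAC, which 0.213% of all windows hold, and the TEAD site GGAATG, which 14.7% hold. The ETS core, written CCGGAA, is in 14.9% of all windows, and the TATA box, written TATAAA, is in 13.6%. The RBPJ site TGGGAA is in 25.6%, and the E-box of the CACGTG kind in 7.15%. A match of letters is a description and not a binding site.

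In short, RNA of the decoy Bambi and of the secreted Bmper was higher in VEGF-treated mice. Each was without overlap between the groups, as were 14.3% of all tested transcripts in that direction (10.5% after median-ratio scaling). Bambi kept its call after scaling, whereas Bmper lost it there and under 10 of 20 alternative settings of the test in all. The abundant Twsg1 was not called, and Chrd stayed at a low level in both groups. Kcp lay between these, and Nog, Grem1 and Sostdc1 were at or near 0. In limma on log2(RPKM + 0.1), 2 of the 4 members tested were called higher, that is with a log2 fold change above 1 and an adjusted p below 0.05, where 13.0% of all 13933 transcripts were called higher. None was called lower, where 1.54% of all transcripts were, and none of the 4 had an unadjusted p below 0.05 in that direction. No member had all AdCMV mice above all AdVEGF mice, as 1.29% of the transcripts did and 7.26% after median-ratio scaling. With no filter, 2 of 6 members were called higher, against 10.4% of all transcripts. Bmper and Kcp passed the filter only through the AdVEGF group, so that the count is a description. After median-ratio scaling, 1 of 5 members tested, Bambi, was called higher (7.62% of all transcripts) and none lower (3.21%). On that scale 1 member, Twsg1, was below 0 at a limma adjusted p of 0.0128 and missed only the size of a call. Below 0 at an adjusted p under 0.05 were 10.5% of all transcripts there. The share of higher transcripts among all calls was 89.4% in the deposited values and 70.4% after scaling.

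**Figure D1:**
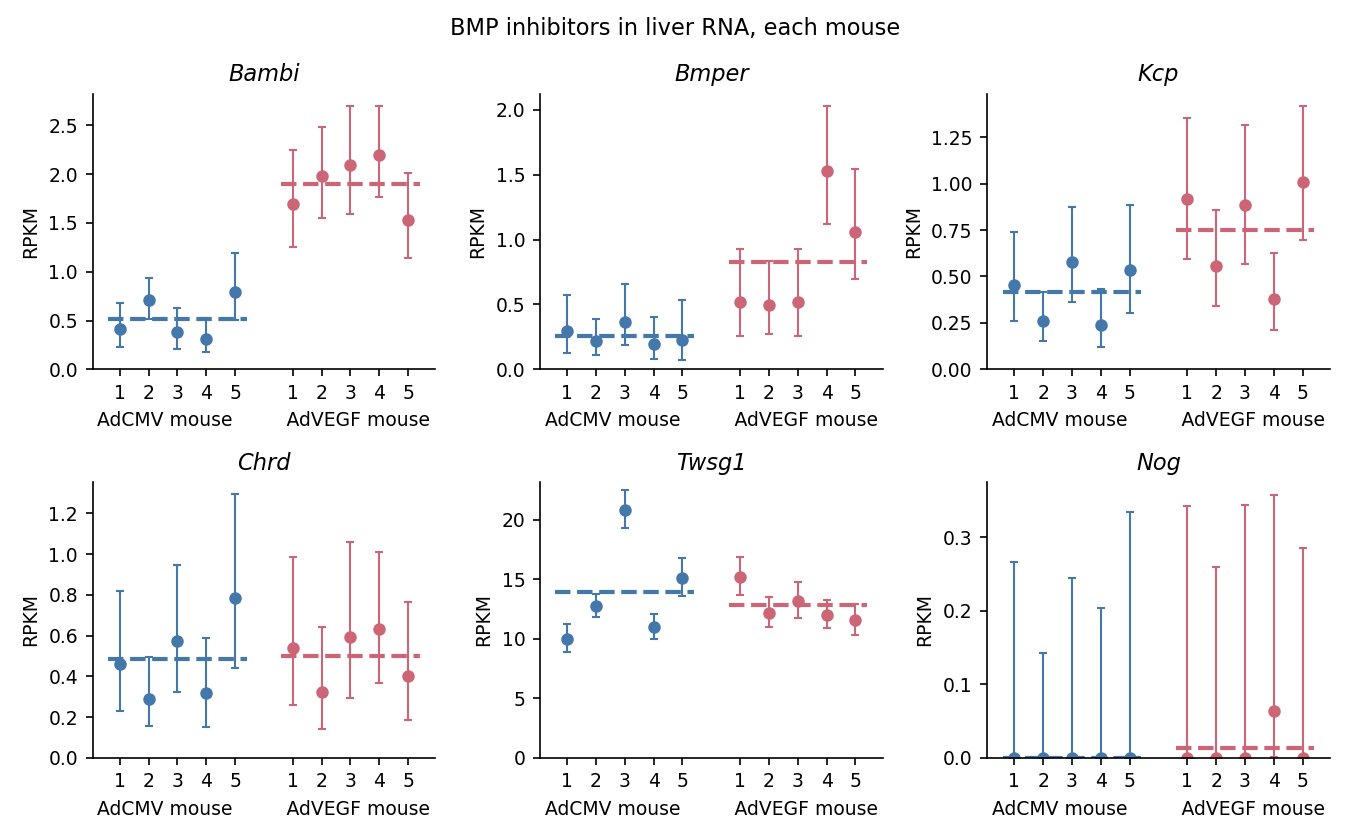
RPKM of 6 BMP inhibitors (vertical axes from 0, each with its own range) in each of the 5 AdCMV and 5 AdVEGF mice (horizontal axes), with exact 95% Poisson intervals of the read counts as bars and group means as dashed lines. Every AdVEGF point of Bambi (1.53 to 2.20) and of Bmper (0.497 to 1.53) lies above every AdCMV point, whereas the groups overlap for Kcp, Chrd and Twsg1.

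Bmper (NM_028472), BMP-binding endothelial regulator or crossveinless-2, is a secreted protein with chordin-like domains that binds BMPs and Chordin and is known both to block and to promote BMP signalling. It lies on chromosome 9 at 23027520 to 23289659 (mm9, plus strand). The AdCMV mice 1 to 5 had 0.292, 0.215, 0.368, 0.196 and 0.229 RPKM. The AdVEGF mice 1 to 5 had 0.517, 0.497, 0.519, 1.53 and 1.06 RPKM. All AdVEGF mice stood above all AdCMV mice, as 14.3% of all tested transcripts did, with 3 AdVEGF mice close together and mice 4 and 5 well above them. These levels rest on few reads, 5 to 11 in an AdCMV library and 11 to 47 in an AdVEGF library. The mean was 0.260 ± 0.0703 (SD, n = 5) RPKM in AdCMV mice and 0.823 ± 0.458 (SD, n = 5) in AdVEGF mice, a ratio of 3.17. The coefficient of variation in the AdVEGF group was 55.7%, where counting alone gives 21.3%, and in the AdCMV group it was 27.0%, where counting gives 34.5%. The log2 fold change was 1.25 (SE 0.39, 95% interval 0.43 to 2.08) with a limma adjusted p of 0.0281, and the unadjusted p of the two-sided exact permutation test of the means was 0.00794, the smallest that 5 against 5 mice allow. After median-ratio scaling, the groups still did not overlap (0.230 to 0.372 against 0.414 to 1.27 RPKM, as for 10.5% of all transcripts), but the log2 fold change was 0.94 and the limma adjusted p 0.0739, so that the call was lost. The call was also lost without any 1 of AdCMV mouse 1 (log2 fold change 1.29, limma adjusted p 0.0542), AdCMV mouse 2 (1.21, adjusted p 0.0624), AdCMV mouse 4 (1.19, adjusted p 0.0604), AdVEGF mouse 4 (1.01, adjusted p 0.0878) or AdVEGF mouse 5 (1.14, adjusted p 0.0623).

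Kcp (NM_001029985), kielin/chordin-like protein, has the same kind of cysteine-rich domains and is listed among the inhibitors by its family, although it is known in the kidney as an enhancer of BMP signalling. It lies on chromosome 6 at 29432036 to 29457952 (mm9, minus strand). The AdCMV mice 1 to 5 had 0.456, 0.260, 0.576, 0.241 and 0.537 RPKM, with 11 to 22 reads each. The AdVEGF mice 1 to 5 had 0.918, 0.555, 0.885, 0.380 and 1.01 RPKM, with 15 to 33 reads each. The groups overlapped, with 3 of 5 AdVEGF mice above the highest AdCMV mouse and AdVEGF mouse 4, the highest for Bmper, the lowest of its group. The mean was 0.414 ± 0.156 (SD, n = 5) RPKM against 0.750 ± 0.269 (SD, n = 5). The log2 fold change of 0.71 (SE 0.37, 95% interval -0.07 to 1.50) did not pass the test (limma adjusted p 0.165, exact permutation p 0.0635), and after scaling it was 0.39 (limma adjusted p 0.406). The exact permutation p was 0.175 after median-ratio scaling and 0.159 after upper quartile scaling. Without each mouse in turn it was 0.0556 to 0.119, except without AdVEGF mouse 4, the lowest of its group, where it was 0.0159. The smallest that 4 against 5 mice allow is 0.00794.

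Chrd (NM_001278041) encodes Chordin, the classical secreted antagonist that holds BMPs through its cysteine-rich domains until it is cut by proteases of the tolloid family. It lies on chromosome 16 at 20733200 to 20742457 (mm9, plus strand). The AdCMV mice 1 to 5 had 0.458, 0.291, 0.574, 0.320 and 0.785 RPKM. The AdVEGF mice 1 to 5 had 0.537, 0.325, 0.593, 0.630 and 0.403 RPKM. The AdVEGF range lay inside the AdCMV range, and each value came from 8 to 17 reads. With means of 0.486 ± 0.202 (SD, n = 5) and 0.498 ± 0.129 (SD, n = 5) RPKM, Chrd fell just under the filter. Tested without a filter, the log2 fold change was 0.07 with a 95% interval of -0.59 to 0.72 (limma adjusted p 0.897, exact permutation p 0.921). After scaling, Chrd entered the test with a log2 fold change of -0.26 (95% interval -0.87 to 0.35, limma adjusted p 0.555). A change of the size seen for Bambi lies outside both intervals.

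Twsg1 (NM_023053), Twisted gastrulation, is a secreted partner that binds BMPs together with Chordin and can strengthen the antagonist or help its cleavage. It lies on chromosome 17 at 66272405 to 66300527 (mm9, minus strand). The AdCMV mice 1 to 5 had 10.0, 12.7, 20.8, 10.97 and 15.1 RPKM. The AdVEGF mice 1 to 5 had 15.2, 12.2, 13.2, 12.02 and 11.6 RPKM. The AdVEGF values all lay within the AdCMV range, and the spread among AdCMV mice, a coefficient of variation of 31.0%, was far above the 4.55% that counting 293 to 694 reads gives. AdCMV mouse 3, the highest for Twsg1, gave the smallest share of reads to the Mup genes among the AdCMV mice, 18.0%, and AdCMV mouse 4, the second lowest for Twsg1, gave the largest, 50.5%. After median-ratio scaling the AdCMV group narrowed from 13.9 ± 4.31 to 15.4 ± 1.65 (SD, n = 5) RPKM, and the AdVEGF mean was 12.8 ± 1.45 before and 11.1 ± 1.21 (SD, n = 5) after it. In the deposited values the log2 fold change was -0.07 (SE 0.21, 95% interval -0.52 to 0.37, limma adjusted p 0.812, exact permutation p 0.714), and without AdCMV mouse 3 it was 0.08. After scaling it was -0.47 (SE 0.12, 95% interval -0.73 to -0.21), with a limma adjusted p of 0.0128 and an exact permutation p of 0.0159, and 4 of 5 AdCMV mice then stood above all AdVEGF mice. This difference was under the size needed for a call, and 10.5% of all transcripts were below 0 at an adjusted p under 0.05 on that scale, against 2.23% in the deposited values. Whether Twsg1 was lower in VEGF-treated mice thus rests on the scaling.

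Nog (NM_008711, Noggin), Grem1 (NM_011824, Gremlin 1) and Sostdc1 (NM_025312, also known as ectodin) are small secreted antagonists of the cystine knot kind. Noggin was read once, in AdVEGF mouse 4 (0.0640 RPKM), and was at 0 in the other 9 mice. Grem1 and Sostdc1 had no read in any of the 10 libraries. A count of 0 was taken to allow up to 3 reads, which for Grem1 is 0.136 to 0.319 RPKM in the AdCMV libraries and 0.226 to 0.328 RPKM in the AdVEGF libraries. The exact 95% Poisson interval of a count of 0 reaches further, to 0.392 RPKM for Grem1 in AdCMV mouse 5. For Sostdc1 this limit ran from 0.127 to 0.307 RPKM over the 10 libraries, and for Nog from 0.116 to 0.279 RPKM over the 9 without a read. The 1 read of Nog allows up to 0.357 RPKM in AdVEGF mouse 4 (upper end of the exact 95% Poisson interval). The limits at 3 reads of the libraries without a read are below the Bambi level of the same mouse. In the AdCMV mouse with the fewest tags, however, the limits for Grem1 (0.319 RPKM), Sostdc1 (0.298 RPKM) and Nog (0.271 RPKM) were above the Bmper value of that mouse, 0.229 RPKM. The 3 genes lie at 89161952 to 89163873 on chromosome 11 (minus strand), at 113588832 to 113598805 on chromosome 2 (minus strand) and at 37040756 to 37045039 on chromosome 12 (plus strand), all in mm9.

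Bambi (NM_026505), BMP and activin membrane-bound inhibitor, is the decoy among the members: it resembles a type I receptor but cannot phosphorylate SMADs, and it is itself known as a target of BMP and TGF-beta signalling. It lies on chromosome 18 at 3507955 to 3516402 (mm9, plus strand). The AdCMV mice 1 to 5 had 0.411, 0.706, 0.378, 0.316 and 0.793 RPKM. The AdVEGF mice 1 to 5 had 1.70, 1.98, 2.09, 2.20 and 1.53 RPKM. Every AdVEGF mouse was above every AdCMV mouse, with 15 to 48 reads per AdCMV library and 48 to 90 per AdVEGF library. The mean rose from 0.521 ± 0.214 (SD, n = 5) to 1.90 ± 0.277 (SD, n = 5) RPKM, a ratio of 3.65. The log2 fold change was 1.74 (SE 0.30, 95% interval 1.11 to 2.37) with a limma adjusted p of 0.000378 and an exact permutation p of 0.00794. After median-ratio scaling the ratio of the means was 2.74, the log2 fold change was 1.38 (SE 0.25) and the limma adjusted p 0.00145, again without overlap. Leaving out each mouse in turn gave log2 fold changes of 1.62 to 1.89, all called. Exact permutation tests were run for 5 members, and their p-values are unadjusted.

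**Figure D2:**
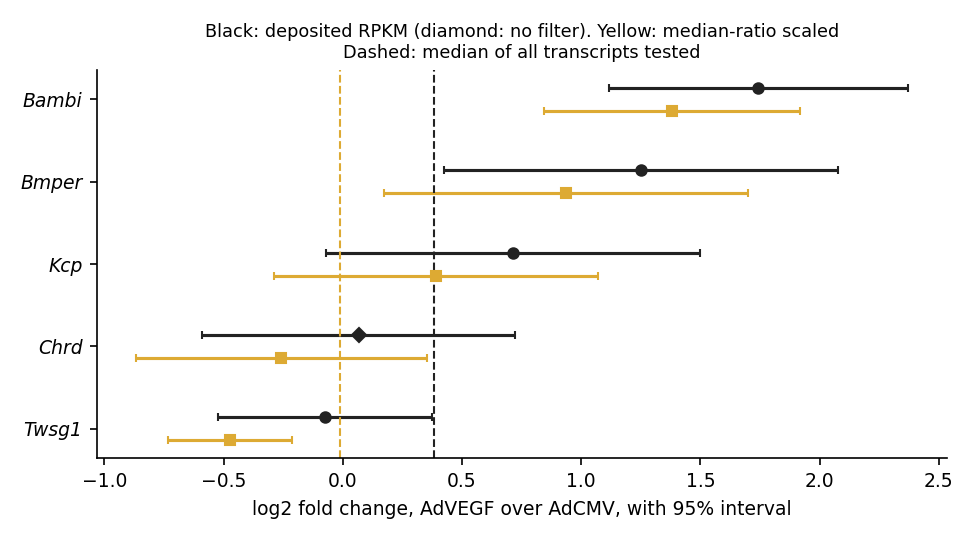
Log2 fold change of AdVEGF over AdCMV (horizontal axis) with its 95% interval from limma for 5 members, in deposited RPKM (black, with Chrd as a diamond from the fit without a filter) and after median-ratio scaling (yellow). Dashed lines are the medians of all tested transcripts, 0.38 and -0.01, and on both scales the intervals of Bambi lie to the right of them while those of Twsg1 lie to the left.

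Ordered by level within the AdCMV group, Twsg1 was first with 13.9 RPKM, followed by Bambi (0.521), Chrd (0.486), Kcp (0.414) and Bmper (0.260), and the ranges of each neighbouring pair after Twsg1 overlapped. In the AdVEGF group the order was Twsg1 (12.8), Bambi (1.90), Bmper (0.823), Kcp (0.750) and Chrd (0.498). There the lowest Bambi value, 1.534 RPKM, was just above the highest Bmper value, 1.525 RPKM, and the ranges of the neighbours after Bmper overlapped. Among all transcripts, by mean over the 10 mice, Twsg1 stood at percentile 83.6, Bambi at 50.6, Kcp at 44.8, Bmper at 44.3 and Chrd at 43.6. Twsg1 made up 86.1 to 91.7% of the summed RPKM of the 8 members in AdCMV mice and 71.5 to 80.6% in AdVEGF mice.

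Summed over the 8 members, inhibitor RNA was 11.6 to 22.7 RPKM with a median of 14.2 in AdCMV mice and 15.5 to 18.9 RPKM with a median of 16.8 in AdVEGF mice, with overlap. After median-ratio scaling the order of the medians turned, with 14.8 to 18.5 RPKM (median 17.6) in AdCMV mice and 13.2 to 16.1 RPKM (median 14.04) in AdVEGF mice, again with overlap. Without Twsg1 the sum was 1.07 to 2.34 RPKM against 3.36 to 4.80 RPKM, with no overlap, and 1.54 to 2.35 against 2.85 to 4.00 RPKM after scaling. The 14 BMP ligand genes summed to 9.40 to 15.6 RPKM in AdCMV mice and to 31.2 to 46.7 RPKM in AdVEGF mice, of which Bmp2 was 43.8% of the mean sum in the AdCMV group and 60.9% in the AdVEGF group. RNA of the members per RNA of the ligands was therefore 1.14 to 1.46 with a median of 1.18 in AdCMV mice and 0.332 to 0.523 with a median of 0.438 in AdVEGF mice. The ratio was lower in AdVEGF mice without overlap, and since both sums come from the same library it does not depend on the scaling. It does depend on Twsg1, which is most of the inhibitor sum. Twsg1 per ligand RNA was 0.988 to 1.34 in AdCMV mice and 0.260 to 0.374 in AdVEGF mice, whereas the ratio without Twsg1 overlapped between the groups. The 18 other secreted antagonists and modulators, at 43.2 to 124 RPKM in AdCMV mice and 56.3 to 82.8 RPKM in AdVEGF mice, are not part of it. A ratio of RNA says nothing of the amount of protein.

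**Figure D3:**
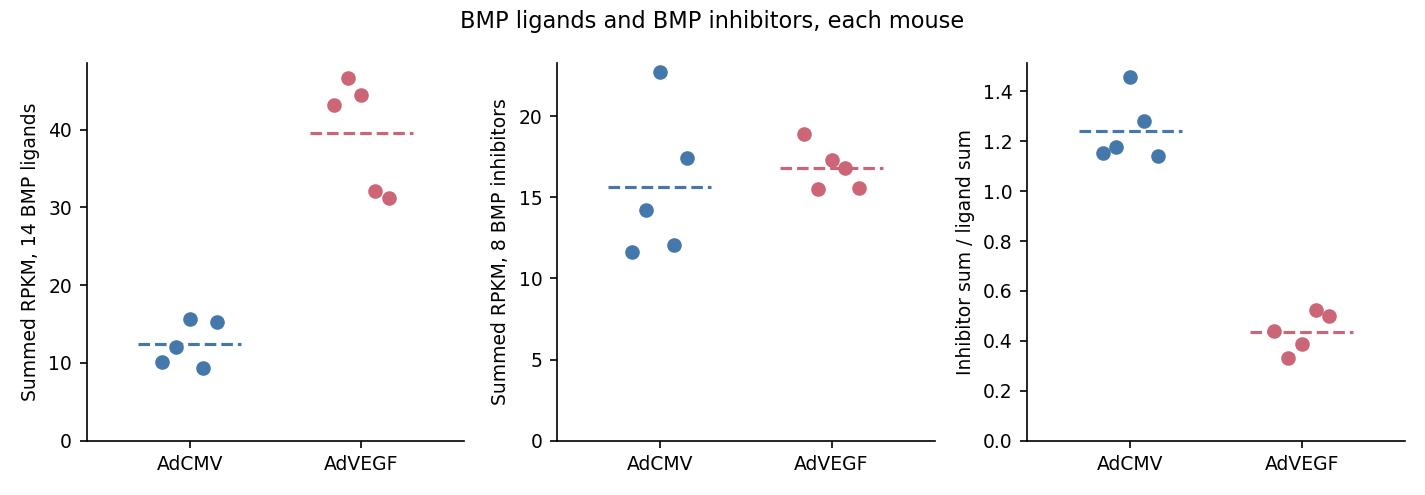
Summed RPKM of 14 BMP ligands (left), summed RPKM of the 8 inhibitors (middle) and their ratio (right) in each AdCMV and AdVEGF mouse, with dashed lines at the group means and vertical axes from 0. The ligand sums separate (9.40 to 15.6 against 31.2 to 46.7), the inhibitor sums of deposited values overlap, and the ratios separate the other way (1.14 to 1.46 against 0.332 to 0.523).

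Marker genes of several cell types moved with the groups. Over all transcripts tested, 13.0% were called higher and 1.54% lower, and 7.62% and 3.21% after median-ratio scaling. Cd34, Myh11, Cnn1, Gpm6a, Krt19 and Timd4 passed the filter only through the AdVEGF group, so that the marker counts are a description. Of these, Cd34 and Myh11 were called higher. All 14 pan-endothelial markers were called higher (14 of 14 also after scaling), and their summed level was 43.3 to 85.4 RPKM in AdCMV mice and 394 to 477 RPKM in AdVEGF mice. Of 9 sinusoidal endothelial markers 8 were higher (61.4 to 108 against 198 to 285 RPKM), and 6 higher and 1 lower after scaling. The marker that was lower is Dnase1l3, a secreted DNase, with all AdVEGF mice below all AdCMV mice, as for 1.29% of all transcripts. Dnase1l3 was at 10.1 ± 2.37 against 5.04 ± 1.05 RPKM (SD, n = 5), with log2 fold changes of -0.98 (limma adjusted p 0.00424) and, after scaling, -1.37. Of 12 hepatic stellate and fibroblast markers 10 were higher (83.1 to 140 against 238 to 460 RPKM), and of 4 smooth muscle markers 3 (11.8 to 24.4 against 53.1 to 198 RPKM). Of the cholangiocyte markers 1 of 4 tested was higher (24.2 to 53.6 against 281 to 726 RPKM, for the most part Spp1), and of the Kupffer cell markers 2 of 7 (86.4 to 187 against 187 to 282 RPKM, with overlap after scaling). Of the hepatocyte markers 2 of 7 were higher (15670 to 20190 against 28390 to 35840 RPKM). After scaling the hepatocyte sums overlapped (13240 to 24770 against 24110 to 32130 RPKM) and limma called none of these markers, nor did voom with TMM scaling, with 1 above and 1 below 0 at an unadjusted p below 0.05. Of the T and NK cell markers 5 of 6 were lower (6.78 to 29.7 against 3.89 to 11.2 RPKM), and of the mesothelial markers 2 were tested and neither was called (sums of 0.704 to 1.61 against 1.43 to 2.35 RPKM). No marker was at 0 in all mice. Per 100 RPKM of pan-endothelial markers, Bambi was 0.443 to 1.15 in AdCMV mice and 0.388 to 0.502 in AdVEGF mice, and Bmper was 0.287 to 0.532 and 0.115 to 0.320. The ranges overlapped for both, with medians of 0.749 and 0.461 for Bambi and of 0.431 and 0.126 for Bmper. Per 100 RPKM of stellate and fibroblast markers, Bambi was 0.302 to 0.565 against 0.378 to 0.644 and Bmper 0.163 to 0.347 against 0.115 to 0.445, with overlap for both. The largest part of this marker sum is Dcn, which was not called (log2 fold change 0.84). Its mean was 71.1 RPKM, of a mean sum of 112 RPKM, in AdCMV mice and 130 of 386 RPKM in AdVEGF mice. The values per stellate and fibroblast marker thus rest in large part on this 1 gene. The part of these cell types in the higher Bambi and Bmper was not tested.

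**Figure D4:**
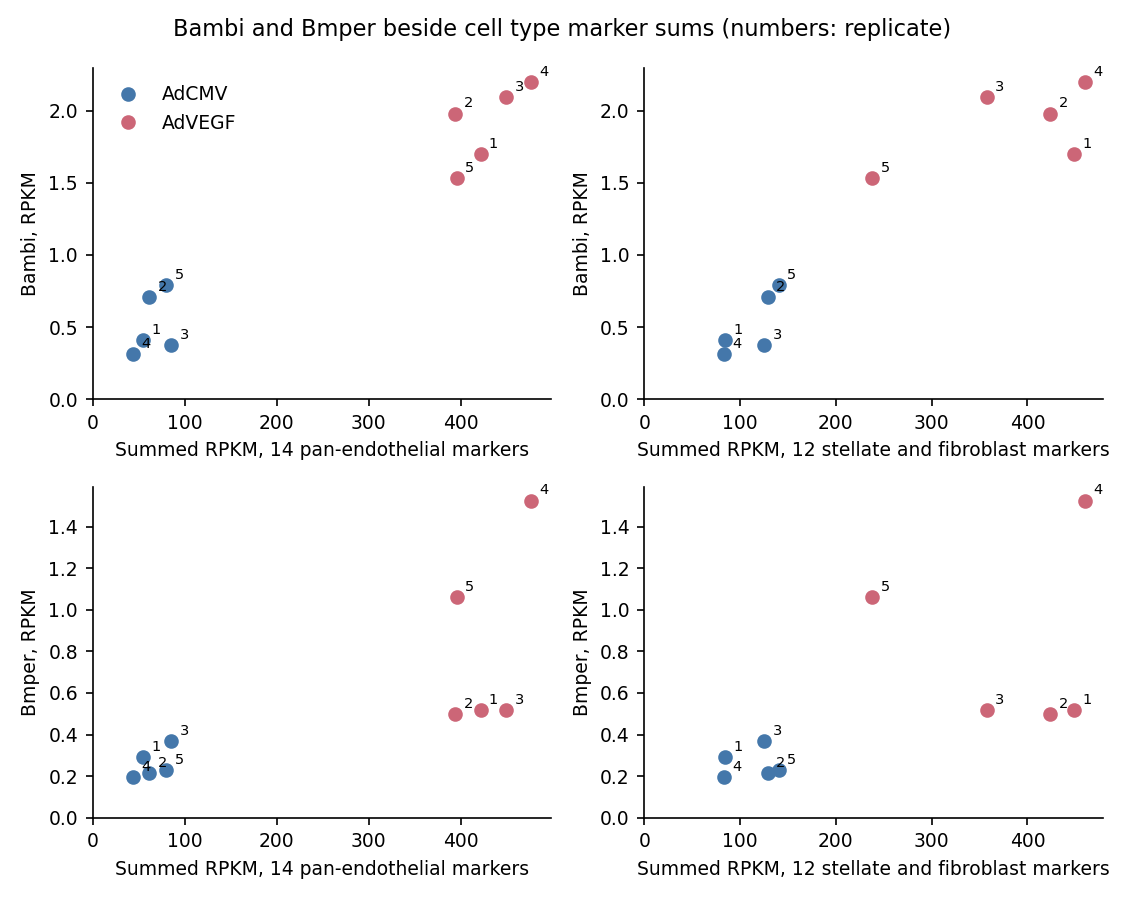
Bambi (top) and Bmper (bottom) in RPKM against the summed RPKM of 14 pan-endothelial markers (left) and 12 stellate and fibroblast markers (right), 1 point per mouse with its replicate number. AdVEGF mice lie at higher marker sums (394 to 477 and 238 to 460) and higher member levels than AdCMV mice, and AdVEGF mice 4 and 5 stand out for Bmper.

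The genes whose profile over the 10 mice was nearest to each member were sought by the Euclidean distance of log2(RPKM + 0.1) values centred on each gene's mean, among 13932 other transcripts. For Bambi these were Sod3 (extracellular superoxide dismutase, distance 0.587), Afap1l2 (0.617) and Lbh (0.761), where the median distance was 2.63. For Bmper they were Creb3l1 (a transcription factor of secretory cells, 1.00), Ralgds (1.04) and Rab11fip5 (1.04), with a median of 2.32. For Kcp they were Strn (0.560), Ankrd44 (0.607) and Calcoco1 (0.641), with a median of 1.79, and for Twsg1 Rnf14 (0.278), Tbk1 (0.326) and Crbn (0.332), with a median of 1.35. The distances were smallest for Twsg1 and largest for Bmper, but the median distances differed too, so that distances are not comparable between members. Reads per library were 293 to 694 for Twsg1 and 5 to 47 for Bmper, and the part of counting error in the distances was not tested.

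Around the members, 64 other genes of the pathway in 6 lists were examined, of which 48 were tested, 25 called higher and 1 lower (17 and 1 after scaling). Over all transcripts tested, 13.0% were called higher and 1.54% lower, and 7.62% and 3.21% after scaling, and the counts of each list are to be read beside these shares. Among 18 other secreted BMP antagonists and modulators, 12 were tested, 4 were higher and 1 lower, with a median log2 fold change of 0.77. Of the 4, Fstl3 and Htra3 passed the filter only through the AdVEGF group. Fstl1, a follistatin-like protein known to bind BMP4, rose from 2.71 ± 1.39 to 21.7 ± 3.55 RPKM (SD, n = 5), which is 3.10 on the log2 scale (limma adjusted p 1.13e-06). Htra1, a secreted protease, rose by a log2 fold change of 1.77, and Fstl3 and Htra3 by 1.25 and 1.45, both without a call after scaling. Tsku (Tsukushi), a secreted binding protein of hepatocytes, fell from 45.2 ± 25.8 to 14.6 ± 7.37 RPKM (SD, n = 5), which is -1.60 on the log2 scale (limma adjusted p 0.00363). Among those not called were Fst, Smoc1, Smoc2, Crim1, Cer1 and Dand5, with log2 fold changes between -0.10 and 0.79. Nbl1, Sost, Chrdl1, Chrdl2, Vwc2 and Vwc2l were under the filter.

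Of the genes that cut or hold Chordin, Olfml3, a secreted scaffold for Chordin and its protease, rose from 1.71 to 6.69 RPKM (log2 fold change 1.93, limma adjusted p 1.62e-05). Bmp1, a tolloid-type protease, was at 11.5 ± 1.53 and 14.6 ± 3.23 RPKM (SD, n = 5) and was not called, and Tll1 and Tll2 were under the filter. Among the ligands 6 of 8 tested were higher, Bmp6 (log2 fold change 2.21), Bmp2 (2.08), Bmp10 (1.75), Gdf2 (1.40), Gdf6 (1.18) and Bmp5 (1.10), with a median of 1.29, and of these Bmp2, Bmp6 and Gdf2 were called after scaling. Bmp6, Bmp10 and Gdf6 passed the filter only through the AdVEGF group, so that the 6 of 8 is a description. Bmp4, at 1.22 and 1.32 RPKM, and Bmp8b were not called. Among receptors and co-receptors 4 of 9 tested were higher, the endothelial receptors Acvrl1 (1.49) and Eng (1.50) on both scales and Rgmb (1.15) and Bmpr2 (1.13) in the deposited values. Bmpr1a and Hfe2 (hemojuvelin) had log2 fold changes of -0.21 and -0.25 in the deposited values and of -0.61 and -0.66 after scaling, none of them a call. After scaling their limma adjusted p was 0.00566 and 0.0171, so that only the size of a call was missed. All AdVEGF mice were then below all AdCMV mice for Bmpr1a, as for 7.26% of all transcripts, with overlap for Hfe2. Of the 9 tested, 5 were above 0 and these 2 below at an unadjusted p under 0.05 on that scale. All 9 response genes of BMP-SMAD signalling were higher, with a median log2 fold change of 1.70, led by Id1 (2.85), Smad6 (2.04), Atoh8 (1.90) and Hamp (1.88), the gene of hepcidin, and 8 of them were called after scaling, all but Id2. Of 8 intracellular inhibitors 1 was called, which is near the share of 13.0% over all transcripts. It was Fkbp1a, a protein that holds type I receptors inactive, with a log2 fold change of 1.50, and the median of the list was 0.56. Smad6 and Smad7, inhibitors inside the cell, are counted with the response genes.

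**Figure D5:**
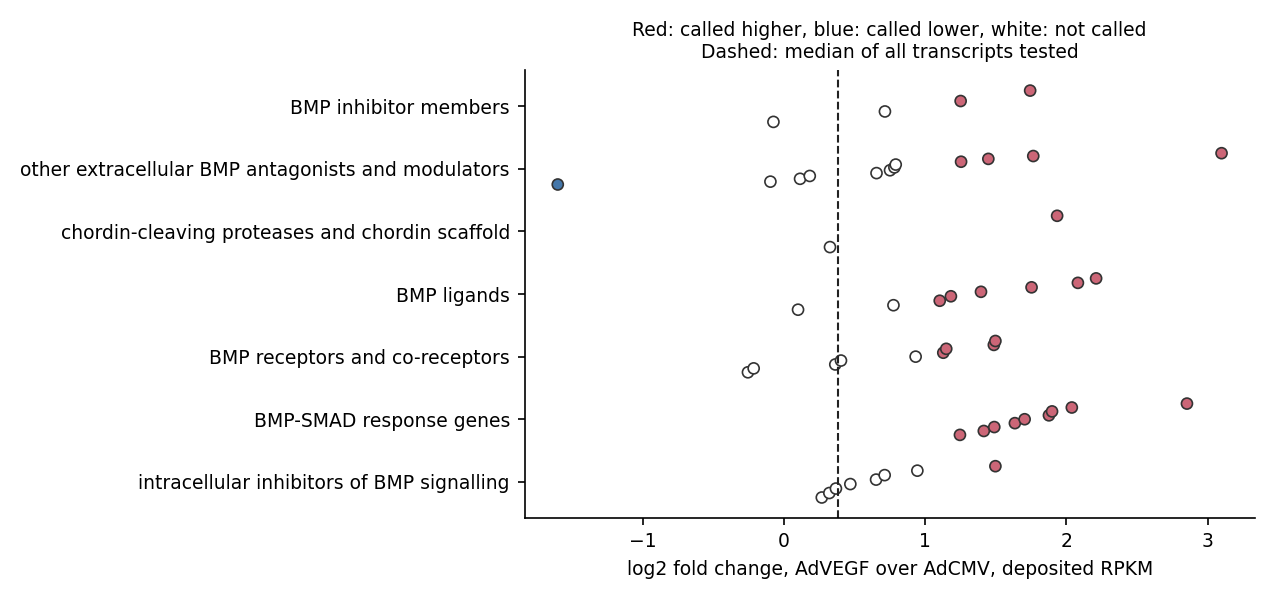
Log2 fold change of AdVEGF over AdCMV in deposited RPKM (horizontal axis) for each tested gene of the 8 members and of 6 other lists of the pathway, red where called higher, blue where called lower and white where not called. The dashed line is the median of all tested transcripts, 0.38, and all 9 response genes lie to its right whereas the members lie on both sides, from -0.07 for Twsg1 to 1.74 for Bambi.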

How the data were processed

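The authors purified liver RNA, removed ribosomal RNA, mapped the reads with TopHat and deposited RPKM values for 24016 RefSeq transcripts in each of 10 mice. Per the labels the build is mm9, and HOMER is named among the tools. The values carry no scaling beyond the library total. The deposited table also holds the authors' own log fold changes and FDR values, which were not used, and the test behind them is not given in the sources used here. Samples were grouped by their labels.

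Reads behind each RPKM value were recovered from its steps: in each library 99.787% to 99.992% of them lay within 0.1 read of a whole number. Intervals and limits cover counting error only. Libraries of a group differed by at least 12.4 times the counting variance. The 5 transcripts without a gene symbol, at most 0.00534% of a library's reads, were left out. No other transcript of the table overlapped the span of a member.

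The members and lists were chosen with earlier results of these data known. Transcripts whose mean exceeded 0.5 RPKM in either group entered limma 3.58.1 in R 4.3.3 (lmFit, eBayes with trend) on log2(RPKM + 0.1), which understates changes of low genes. Adjustment was by Benjamini-Hochberg over all transcripts, and a call needed an adjusted p below 0.05 together with a log2 fold change beyond 1 or -1. The thresholds are those of the study. Exact permutation tests over 252 regroupings were run in Python 3.11.15 on the mean RPKM of single members. The fit was tested on simulated data without a shift in library composition. Only transcripts above the AdCMV level of Bambi, Bmper, Kcp and Chrd were changed in them, so that the simulation does not cover these members. Named genes were the 8 members, the genes of the lists and, for each tested member, the 3 nearest profiles, and not every gene of the lists is reported here by name. The tests were repeated with median-ratio or upper quartile scaling, pseudocounts of 1 and 0.01, no filter and a filter of 1 RPKM, treat, voom on recovered reads with and without TMM scaling, a single row for each symbol, a block for the replicate number, and without each mouse in turn.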

Additional observations from a re-analysis of the deposited data

How the results depend on the processing

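Bambi kept its direction under all 21 alternatives and its call under all but a pseudocount of 1, where the log2 fold change was 0.94, and treat, limma's test against a threshold of 1 on the log2 scale (adjusted p 0.22). No filter, a filter of 1 RPKM, treat, a single row for each symbol and the replicate block leave the log2 fold change of a tested member unchanged. The direction could therefore not turn there, and the single row for each symbol gave the same result as the main fit. Bmper kept its direction under all 20 alternatives that could give a value and lost its call under 10 of them: its log2 fold change was 0.94 with median-ratio scaling, 0.97 with upper quartile scaling, 0.50 with a pseudocount of 1 and 1.13 with voom and TMM scaling, and its treat adjusted p was 1. A filter of 1 RPKM removed Bmper and Kcp from the test. The number of members called higher was therefore 1 with median-ratio scaling, upper quartile scaling, a filter of 1 RPKM and voom with TMM scaling, 0 with a pseudocount of 1 and with treat, and 1 to 2 without each mouse in turn. Kcp stayed without a limma call in all of its 20 alternatives (log2 fold changes 0.30 to 0.90). No alternative called a member lower. Twsg1 was again below 0 without the size of a call with upper quartile scaling (log2 fold change -0.43, limma adjusted p 0.0190) and with voom and TMM scaling (-0.48, limma adjusted p 0.00977). The log2 fold change of Twsg1 was -0.18 to 0.082 without each mouse in turn, above 0 only without AdCMV mouse 3. The difference of the means of Chrd changed sign with median-ratio scaling (exact permutation p 0.238), with upper quartile scaling (0.357) and without 4 of the mice (0.341 to 0.984 over all 10), and that of Twsg1 without AdCMV mouse 3 (0.405 to 0.849 over all 10).

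Over all transcripts, the calls higher and lower were 1808 and 214, and 1052 and 443 with median-ratio scaling, 1099 and 397 with upper quartile scaling, 954 and 147 with a pseudocount of 1, 503 and 36 with treat, 1130 and 481 with voom and TMM scaling, and 1425 to 2357 and 178 to 225 without each mouse in turn. In the other lists of the pathway 25 genes were called higher, against 16 with a pseudocount of 1, 6 with treat (and 0 lower) and 20 to 29 without each mouse.

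The deviations of same-numbered mice from their group means correlated between 0.00763 and 0.291, under 0.1 for 3 of 5 numbers. For AdCMV mice 1, 4 and 5, the AdVEGF mouse of the same number was nevertheless the one that correlated most. The main fit did not take the numbers as pairs, and a fit with the number as a block was run beside it. With the replicate block 2 members were again called higher and none lower, with 1933 and 256 calls over all transcripts.

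Depth is a limit beside the spread between mice and the scaling: with 5 to 47 reads per library for Bmper and 8 to 17 for Chrd, changes of these members are measured with wide intervals, and Nog, Grem1 and Sostdc1 could not be compared.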

Other observations

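Within the AdVEGF group, the 2 mice with the highest Bmper were those with the lowest Bmp2, a pattern seen after the values were known and not tested. AdVEGF mice 4 and 5 had 1.53 and 1.06 RPKM of Bmper and 19.1 and 15.0 RPKM of Bmp2, whereas mice 1, 2 and 3 had 0.497 to 0.519 RPKM of Bmper and 25.4, 29.9 and 31.0 RPKM of Bmp2. Mice 4 and 5 also had the lowest ligand sums of the group, 32.2 and 31.2 RPKM, and the highest ratios of inhibitor to ligand RNA, 0.523 and 0.499. The Bambi to Bmper ratio was 1.44 and 1.45 in these mice and 3.28 to 4.04 in the other AdVEGF mice. In the AdCMV group the same ratio ran from 1.027 to 3.46. Their pan-endothelial marker sums, 477 and 396 RPKM, were the highest and the second lowest of the AdVEGF group. The Mup genes took 11.2% of the reads of mouse 4 and 28.6% of those of mouse 5, and the part of library composition in the pattern was not tested.

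Kcp was not high in both of these mice: AdVEGF mouse 5 had the highest value of its group, 1.01 RPKM, and mouse 4 the lowest, 0.380 RPKM.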
